A study of Mus musculus with 9 samples.

Results

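MHC class II presentation genes were followed in RNA-sequencing data from myeloid-derived suppressor cells (MDSCs), immature myeloid cells that accumulate in tumour-bearing animals. The 9 genes, chosen by name among the 23284 gene symbols of the data, were H2-Aa, H2-Ab1 and H2-Eb1, Cd74, H2-DMa and H2-DMb1, H2-Oa and H2-Ob, and Ciita. All 9 were listed in every sample and passed the filter on low values in both comparisons. The levels are FPKM (fragments per kilobase of transcript, scaled for the depth of the sample). The unit accounts for gene length, so levels of different genes can be set side by side.

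The 9 samples fell into 3 groups of 3: polymorphonuclear MDSCs (PMN-MDSCs) and monocytic MDSCs (Mo-MDSCs) from wild-type (WT) C57BL/6J mice, and Mo-MDSCs from mice labelled as p16/p21 double knockout (DKO), strain C57BL/6. The knockout is a label of the animal, not of the MDSCs alone. All mice bore a spindle cell tumour (SCT) line, itself derived from a carcinogen-treated p16-knockout mouse, and all cells came from the spleen by magnetic separation (Ly6G+ cells as PMN-MDSCs, Ly6G- Gr-1+ cells as Mo-MDSCs). The label gives an age of 3 weeks, which in the study's methods is the time between SCT injection and cell collection. Whether the 3 samples of a group came from separate mice is not given in the sources used here, so p-values measure the spread between samples, which may be technical, and the strain label cannot be told apart from the genotype.

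MHC class II molecules are pairs of an α and a β chain that carry peptides from engulfed proteins to the surface of B cells, dendritic cells, macrophages and some monocytes, where CD4+ T cells read them. The invariant chain Cd74 blocks the groove during assembly, H2-DM then exchanges the remaining fragment for peptides, and H2-O restrains H2-DM, chiefly in B cells. Ciita, the class II transactivator, switches class II genes on through protein complexes that sit on the X and Y boxes of their promoters. Splenic B cells carry abundant class II RNA, so B-cell genes were measured beside the class II genes throughout.

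Promoter stretches with core letters of the X and Y boxes are shown because the genes below are reported as a group. Whether proteins bind these stretches was not tested. The sequences were taken from RefSeq (GRCm38.p6), where 6 of the 9 genes had a promoter entry, H2-Aa, H2-Eb1, H2-DMa, H2-DMb1, H2-Oa and H2-Ob. The search was for GNAAC (the core of the X box) followed on the same strand by TGATTGG (the core of the Y box) after 20 to 45 bases, on either strand of the window from 250 bases before to 50 after the start site. The motif letters and spacing were picked after the sequences had been read. In the lines that follow, capitals mark both cores and the strand is that of the gene.
H2-Aa, chr17:34287852-34287919, minus strand: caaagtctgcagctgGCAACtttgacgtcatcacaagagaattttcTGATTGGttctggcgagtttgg
H2-Eb1, chr17:34305761-34305827, plus strand: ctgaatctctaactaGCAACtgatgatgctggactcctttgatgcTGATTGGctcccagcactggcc
H2-DMb1, chr17:34153082-34153149, plus strand: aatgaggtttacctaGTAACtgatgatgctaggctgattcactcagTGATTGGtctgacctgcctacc
H2-Oa, chr17:34092288-34092355, plus strand: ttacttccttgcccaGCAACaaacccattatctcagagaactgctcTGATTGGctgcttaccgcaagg
H2-Ob, chr17:34238803-34238867, plus strand: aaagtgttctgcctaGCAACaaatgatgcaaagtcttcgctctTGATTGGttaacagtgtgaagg

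The pair of cores was found in 5 of the 6 genes, with 23 to 26 bases between the cores. Of all 27025 genes with a promoter entry 0.818% held the pair, and of their 32851 promoter windows 0.712%. Since letters and spacing were picked from these same sequences, the count of 5 is a description and no test. H2-DMb2, a class II gene outside the 9, held the Y core but not the pair. The Y core alone was in 7.82% of all windows. Neither window of H2-DMa held these letters, which says nothing more than that. Of the 9 genes, 7 lie between H2-Oa and H2-Eb1 in the major histocompatibility complex, within chr17:34092340-34316674 of GRCm38. Ciita lies at chr16:10480059-10528418 and Cd74 on chromosome 18.

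The levels were high in all 3 groups. Cd74, which also acts as a surface receptor, was the most abundant of the 9 genes, with mean levels of 4494 ± 262 FPKM in PMN-MDSCs, 3590 ± 237 in WT Mo-MDSCs and 5143 ± 207 in the Mo-MDSCs labelled DKO (SD, n = 3). Among all gene symbols these levels ranked 8, 11 and 3. In each group the order was then H2-Aa, H2-Ab1, H2-Eb1 and H2-DMa, and the ranges of neighbours in that order did not overlap.

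Below H2-DMa the order differed by group. H2-DMb1, H2-Ob and H2-Oa stood in this order in both Mo-MDSC groups without overlap, but their ranges overlapped in PMN-MDSCs, at means of 81.6, 85.4 and 84.8 FPKM. Ciita was the lowest in both WT groups. In the samples labelled DKO the ranges of Ciita and H2-Oa overlapped, at means of 60.3 and 54.7 FPKM.

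**Figure D1:**
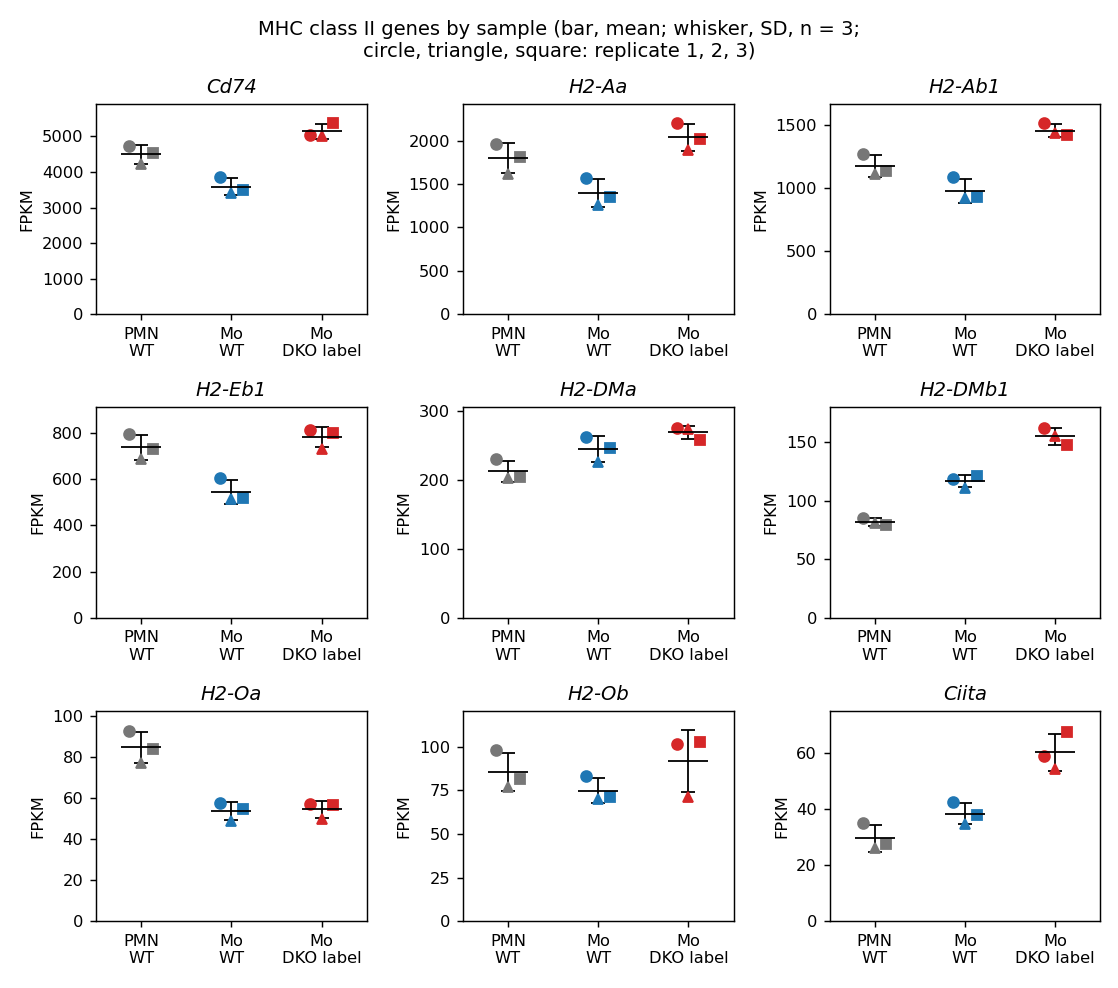
FPKM (vertical axes, from 0) of the 9 MHC class II genes in each of the 9 samples, by group; the horizontal bar is the mean, the whisker the SD (n = 3), and circle, triangle and square are replicates 1, 2 and 3. For 6 genes the samples labelled DKO lie above all WT Mo-MDSC samples, whereas H2-Oa is at the same level in both Mo-MDSC groups and higher in PMN-MDSCs.

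H2-Ea, the α partner of H2-Eb1, is not made in mice of the C57BL/6 background, so the E chain pair does not reach the surface there. Its row, listed as the pseudogene H2-Ea-ps, was between 0 and 0.721 FPKM in the 9 samples. H2-Eb1 itself was nevertheless at 514 to 814 FPKM.

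The deleted genes did not check the genotype label. Cdkn1a, which encodes p21, was at 8.18, 6.46 and 8.04 FPKM in WT Mo-MDSCs and at 5.55, 8.52 and 6.00 FPKM in the samples labelled DKO, so the groups overlapped. Cdkn2a, which encodes p16 and p19Arf, was at 0.718, 0.772 and 0.432 against 0.258, 0.586 and 0 FPKM. FPKM sums all exons of a gene and the deleted exons are not given in the sources used here.

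The cell type labels were checked with marker genes. Ccr2, the chemokine receptor of classical monocytes, was at 281 to 362 FPKM in WT Mo-MDSCs and at 2.36 to 2.51 FPKM in PMN-MDSCs, as the labels say. Cxcr2, a chemokine receptor of neutrophils, was at 590 to 875 FPKM in PMN-MDSCs and at 6.87 to 18.6 FPKM in WT Mo-MDSCs. The neutrophil genes Mmp8 and Retnlg were also higher in PMN-MDSCs without overlap. The neutrophil granule genes Ngp and Ltf overlapped, Ngp at 2699 to 11179 against 2349 to 7617 FPKM and Ltf at 776 to 3205 against 575 to 1856 FPKM. Neutrophil-lineage RNA was thus present in WT Mo-MDSC samples too. Csf1r, the receptor for the macrophage growth factor, did not separate the subsets, at 674 to 841 against 750 to 853 FPKM. B-cell markers were present in every sample: Cd79a, a signalling chain of the B-cell receptor, was at 562 to 588 FPKM in PMN-MDSCs, at 353 to 384 in WT Mo-MDSCs and at 380 to 461 in Mo-MDSCs labelled DKO. The defining dendritic-cell genes Flt3, Zbtb46, Xcr1 and Clec9a were between 0.678 and 6.97 FPKM, while others of the 10 dendritic-cell genes listed were higher, Itgax at 17.7 to 38.1, Batf3 at 10.7 to 31.4 and Ccr7 at 13.7 to 26.9 FPKM. The summed levels of 6 T-cell and 4 NK-cell genes did not exceed 16.4 and 2.82 FPKM. Depth relative to WT Mo-MDSC replicate 1, read from low genes, was 0.809 to 1.31, and 11299 to 11418 genes per sample reached 1 FPKM; the number of reads is unknown.

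The first comparison asked how the MDSC subsets differ. H2-DMb1, listed as a chain of the peptide editor, rose in Mo-MDSCs, whereas H2-Oa, a chain of the editor's inhibitor, and H2-Eb1 fell. H2-DMb1 went from a mean of 81.6 to 117 FPKM, while its near-identical neighbour H2-DMb2 went from 162 to 116 FPKM. Whether the β chain of the editor rose as a whole was not tested. Of the 9 genes 1 was called higher and 2 lower in limma at an adjusted p below 0.05, where 18.5% of the 11491 genes tested were called higher and 20.6% lower, so neither share stands far from that of all genes. The median log2 fold change over the 9 genes was -0.26 against 0.0099 for all genes tested. A fold change here is on the scale of log2(FPKM + 0.1).

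H2-DMb1 was at 85.2, 81.0 and 78.7 FPKM in PMN-MDSCs and at 119, 111 and 121 FPKM in WT Mo-MDSCs. All 3 Mo-MDSC samples were above all PMN-MDSC samples. The fold change was 0.52 ± 0.07 on the log2 scale (SE, adjusted p in limma 0.0016).

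H2-Oa was at 92.8, 77.3 and 84.2 FPKM in PMN-MDSCs and at 57.7, 48.9 and 54.6 FPKM in WT Mo-MDSCs. The PMN-MDSC samples were all higher. The level fell by 0.66 ± 0.10 on the log2 scale (SE, adjusted p in limma 0.0022), and its partner chain H2-Ob, at 97.8, 76.9 and 81.4 against 83.3, 70.0 and 71.3 FPKM, overlapped between the subsets.

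H2-Eb1, a β chain, was at 796, 686 and 729 FPKM in PMN-MDSCs and at 605, 515 and 518 FPKM in WT Mo-MDSCs. The groups did not overlap, with PMN-MDSCs higher, and the level fell by 0.43 ± 0.10 (log2, SE, adjusted p in limma 0.016). Without WT Mo-MDSC replicate 2 or 3 the adjusted p was 0.057 or 0.062, and after quantile normalization, which gives every sample the same distribution of values, the fold change was -0.022 (adjusted p in limma 0.898).

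Cd74, H2-Aa and H2-Ab1 stood in the same order without passing the threshold. Cd74 was at 4730, 4213 and 4541 FPKM in PMN-MDSCs and at 3861, 3422 and 3487 FPKM in WT Mo-MDSCs, with no overlap and a log2 fold change of -0.32 ± 0.12 (SE, adjusted p in limma 0.069). H2-Aa, the α chain of the A pair, was at 1959, 1618 and 1809 against 1572, 1256 and 1353 FPKM. H2-Ab1, its β chain, was at 1269, 1107 and 1130 against 1085, 916 and 923 FPKM. For both, all PMN-MDSC samples were above all Mo-MDSC samples, and the adjusted p in limma was 0.058 for H2-Aa and 0.10 for H2-Ab1.

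H2-DMa and Ciita had log2 fold changes on the other side of 0. H2-DMa, the α chain of the editor, was at 230, 203 and 205 FPKM in PMN-MDSCs and at 263, 226 and 247 FPKM in Mo-MDSCs, and Ciita was at 35.1, 26.1 and 27.6 against 42.6, 34.9 and 37.9 FPKM. In each case 1 Mo-MDSC sample, replicate 2, was below the highest PMN-MDSC sample. In all, 1 gene was higher and 5 were lower without overlap between the subsets, where 26.2% and 26.4% of all genes tested were.

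The replicate numbers of the samples of both subsets went together, and with the number as a block in the limma fit all 9 genes passed, 3 higher and 6 lower, where 27.6% of all genes tested were then called higher and 29.7% lower. The 3 higher were H2-DMb1, Ciita and H2-DMa, with adjusted p of 0.00046, 0.0020 and 0.012. The 6 lower were H2-Oa, H2-Eb1, H2-Aa, H2-Ab1, Cd74 and H2-Ob, with adjusted p between 9.4e-05 for H2-Oa and 0.015 for H2-Ob. After quantile normalization without the block, H2-Oa alone among these 6 was called (log2 fold change -0.42, adjusted p in limma 0.012), and Cd74, H2-Ab1, H2-Aa and H2-Ob stood at -0.019, -0.012, -0.10 and 0.091, with adjusted p of 0.93, 0.95, 0.63 and 0.58.

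**Figure D2:**
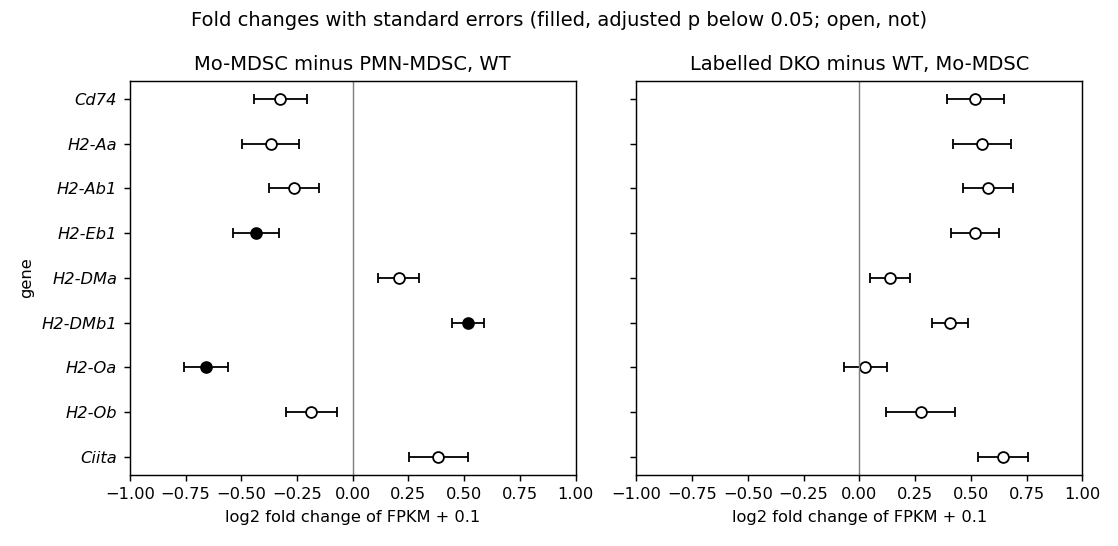
Log2 fold change of FPKM + 0.1 (horizontal axes) of the 9 genes, with the standard error of the limma fit as whiskers, for Mo-MDSCs against PMN-MDSCs of WT mice and for Mo-MDSCs labelled DKO against WT. Filled points, H2-Eb1, H2-DMb1 and H2-Oa in the subset comparison, had an adjusted p below 0.05; no point is filled in the genotype comparison, where all 9 values are above 0.

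Genes of other cells moved between the subsets as well. In bulk RNA, fewer cells of a type and less RNA per cell cannot be told apart. The counts that follow stand beside 18.5% of all genes tested called higher and 20.6% called lower. Of 12 B-cell markers measured, 7 were called lower in Mo-MDSCs and 0 higher, with a median log2 fold change of -0.45; the summed level of all 12 was 1869 to 2175 FPKM in PMN-MDSCs and 1332 to 1520 FPKM in WT Mo-MDSCs, and no marker was at 0. The B-cell surface receptor Cd22, in contrast, was at 109 ± 13.2 against 104 ± 11.8 FPKM (SD, n = 3), with overlap. Of 6 red-pulp macrophage genes, which mark resident splenic macrophages with class II of their own, 5 fell, and their sum was 5418 to 6441 against 3368 to 4328 FPKM. Dendritic-cell genes went both ways. Of 8 tested, 4 rose in Mo-MDSCs (Flt3, Clec9a, Batf3 and Clec10a, by 0.96, 0.98, 1.06 and 3.71 on the log2 scale) and 2 fell (Itgax by 1.00 and Ccr7 by 0.46), and the sum of all 10 listed was 73.1 to 87.8 against 77.5 to 88.7 FPKM.

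Set against the summed level of 4 B-cell genes (Ms4a1, Pax5, Cd79a and Cd79b), H2-DMb1 was at 5.79%, 6.23% and 5.51% of that sum in PMN-MDSCs and at 12.1%, 12.5% and 13.8% in WT Mo-MDSCs. Ciita went from 2.39%, 2.01% and 1.93% to 4.33%, 3.93% and 4.33%. H2-Oa, by contrast, overlapped on this scale, at 6.31%, 5.95% and 5.90% against 5.87%, 5.50% and 6.23%. Relative to that sum, 8 genes were higher and 0 lower in Mo-MDSCs without overlap (exact permutation test, 2-sided p = 0.1 for each of the 8, the smallest that 3 against 3 samples allow), where 70.9% of all genes tested were higher and 6.74% lower. With Ms4a1 and Pax5 alone as the sum, the groups overlapped for H2-Aa, H2-Ab1, H2-Eb1 and Cd74, whose log2 differences were then 0.14, 0.25, 0.076 and 0.19. The part of B-cell and macrophage RNA in the subset differences was not tested.

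The second comparison asked how Mo-MDSCs labelled DKO differ from WT Mo-MDSCs. In the samples labelled DKO, Ciita, the A chains H2-Aa and H2-Ab1, H2-Eb1, Cd74 and H2-DMb1 were 1.33- to 1.57-fold above WT in mean FPKM, with no overlap between groups, but none passed the adjusted threshold. In limma 0 of the 9 genes had an adjusted p below 0.05, where 0.166% of the 11451 genes tested were called higher and 0.0873% lower. At an unadjusted p below 0.05, 6 of the 9 were higher and 0 lower, where 5.27% of all genes tested were higher and 9.74% lower. The same 6 were the ones without overlap, where 7.96% of all genes tested were higher and 12.9% lower without overlap. The median log2 fold change was 0.52 over the 9 genes and -0.018 over all genes tested.

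Ciita, the transactivator, was at 42.6, 34.9 and 37.9 FPKM in WT Mo-MDSCs and at 59.0, 54.4 and 67.4 FPKM in Mo-MDSCs labelled DKO. Every sample labelled DKO was above every WT sample. The log2 difference was 0.65 ± 0.11 (SE, unadjusted p 0.00049, adjusted p 0.086 in limma), the largest of the 9.

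H2-Ab1 was at 1085, 916 and 923 FPKM in WT and at 1510, 1430 and 1417 FPKM in samples labelled DKO, and H2-Aa was at 1572, 1256 and 1353 against 2197, 1894 and 2021 FPKM. Both chains of the A molecule were higher in all 3 samples labelled DKO. The log2 differences were 0.58 ± 0.11 for H2-Ab1 and 0.55 ± 0.13 for H2-Aa (SE, adjusted p in limma 0.12 and 0.16).

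H2-Eb1 was at 605, 515 and 518 FPKM in WT and at 814, 730 and 801 FPKM in samples labelled DKO. Cd74, the invariant chain, was at 3861, 3422 and 3487 against 5048, 5001 and 5381 FPKM. For both the groups were apart, with log2 differences of 0.52 ± 0.11 and 0.52 ± 0.13 (SE, adjusted p in limma 0.13 and 0.18).

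The editor and its inhibitor showed smaller differences. H2-DMb1 was at 119, 111 and 121 FPKM in WT and at 162, 155 and 148 FPKM in samples labelled DKO, with no overlap and a log2 difference of 0.41 ± 0.08 (SE, adjusted p in limma 0.13). H2-DMa was at 263, 226 and 247 against 276, 275 and 259 FPKM. The groups overlapped for H2-DMa, whose log2 difference was 0.14 ± 0.09 (SE, adjusted p in limma 0.50).

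H2-Oa was at 57.7, 48.9 and 54.6 FPKM in WT Mo-MDSCs and at 57.5, 49.96 and 56.7 FPKM in those labelled DKO. Its samples overlapped throughout, with a log2 difference of 0.03 ± 0.10 (SE, adjusted p in limma 0.91) whose sign turned when WT replicate 2 (-0.039) or DKO replicate 1 (-0.0097) was left out. H2-Ob was at 83.3, 70.0 and 71.3 against 101, 71.1 and 103 FPKM, so replicate 2 of the samples labelled DKO lay among the WT samples.

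After quantile normalization H2-Ab1 and H2-DMb1 passed the threshold in this comparison, with log2 differences of 0.82 and 0.53 (adjusted p in limma 0.045 and 0.037). Of the 11454 genes then tested, 23 were called higher and 13 lower. The other class II genes did not pass, among them Cd74 at 0.72 (adjusted p in limma 0.36).

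Markers of other cells were set beside these values. Over all genes tested, 5.27% were higher at an unadjusted p below 0.05 in limma and 7.96% were higher without overlap. Of the 12 B-cell markers, 0 were called in either direction, but 4 were higher at an unadjusted p below 0.05 and 4 without overlap. Among both were Spib, a B-cell transcription factor, at a log2 difference of 0.37 (unadjusted p 0.0071 in limma), and Fcer2a, a low-affinity IgE receptor, at 0.46 (unadjusted p 0.016). In all, 11 of the 12 were above 0, with a median of 0.23 and a summed level of 1332 to 1520 FPKM in WT and 1424 to 1834 FPKM in samples labelled DKO. All 6 red-pulp macrophage genes had differences above 0, with 0 called, and their sum was 3368 to 4328 against 3597 to 5546 FPKM. Spic, the factor that directs red-pulp macrophages, stood at 0.60 without overlap (unadjusted p 0.0091 in limma).

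Markers of the MDSC subsets themselves were compared between the genotype labels as well. The 5 neutrophil genes tested had a median log2 difference of -1.41, with 0 called, and their summed level was 3089 to 9626 FPKM in WT and 1348 to 2854 FPKM in samples labelled DKO, with no overlap. Ngp, Ltf and Retnlg, genes of neutrophil granules or secretion, were lower without overlap, at -1.45, -1.41 and -1.71, each with an unadjusted p below 0.05 in limma, whereas Mmp8, a neutrophil collagenase, was higher without overlap at 0.79. Cxcr2 overlapped, at -0.70 (unadjusted p 0.094 in limma). Of all genes tested, 7.96% were higher and 12.9% lower without overlap, and 5.27% were higher and 9.74% lower at an unadjusted p below 0.05. The 6 monocyte genes had a median log2 difference of -0.45, with 0 called, and Ccr2 was at 362, 281 and 336 against 178, 202 and 160 FPKM, lower in all samples labelled DKO. Ly6c2, Cx3cr1 and Fn1 were also lower without overlap, at -0.86, -0.48 and -0.42. Csf1r and F13a1, in contrast, overlapped between the genotype labels, at 0.049 and -0.10. Of 9 dendritic-cell genes tested, 0 were called, and 2 were higher and 2 lower at an unadjusted p below 0.05; sums of the 10 listed were 77.5 to 88.7 against 83.0 to 91.3 FPKM.

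Relative to the 4 B-cell genes, Ciita was at 4.33%, 3.93% and 4.33% of their sum in WT Mo-MDSCs and at 5.40%, 5.75% and 5.72% in those labelled DKO. H2-Ab1 was at 110.4%, 103% and 105% against 138%, 151% and 120.3%. On this scale 5 of the 9 genes (Ciita, H2-Ab1, H2-Aa, H2-Eb1 and Cd74) were higher without overlap and H2-Oa was lower, where 1.16% of all genes tested were higher and 28.2% lower.

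The log2 differences relative to the B-cell sum were 0.42 for Ciita, 0.36 for H2-Ab1, 0.33 for H2-Aa and 0.30 for both H2-Eb1 and Cd74 (exact permutation test, 2-sided p = 0.1 for each, the smallest possible). Each is smaller than the difference in level given above. That follows from the scale, which lowers every gene by the same amount, the difference of the B-cell sum. H2-DMb1, with 12.1%, 12.5% and 13.8% against 14.8%, 16.4% and 12.5%, overlapped on this scale. The part of macrophage RNA, and of neutrophil and monocyte RNA, in these differences was not tested.

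**Figure D3:**
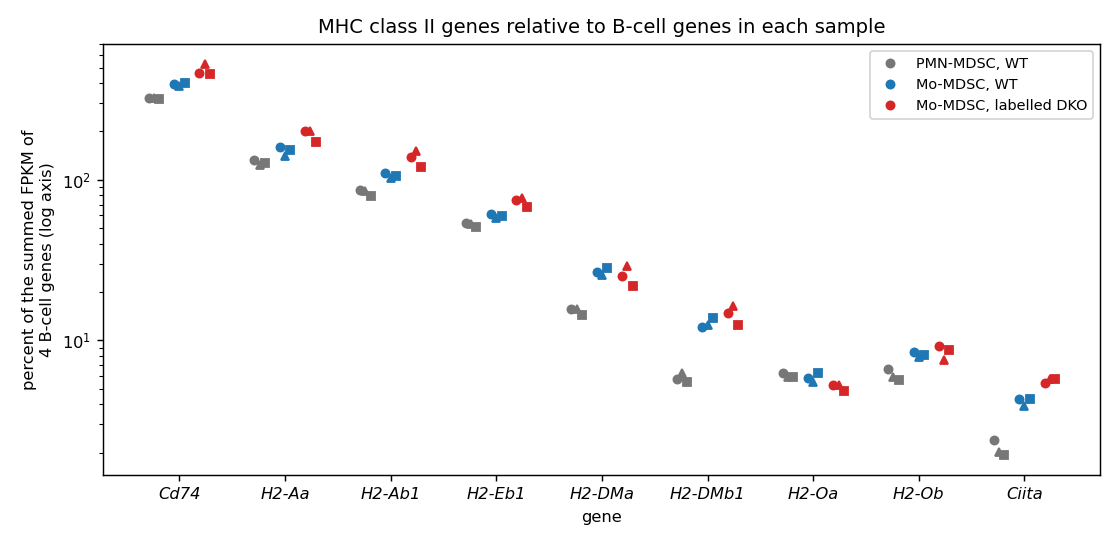
FPKM of each class II gene as a percent of the summed FPKM of Ms4a1, Pax5, Cd79a and Cd79b in the same sample (log axis), with circle, triangle and square for replicates 1, 2 and 3 of each group. Samples labelled DKO lie above the WT Mo-MDSC samples for Cd74, H2-Aa, H2-Ab1, H2-Eb1 and Ciita and below them for H2-Oa.

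Ratios within a sample showed which genes kept pace with each other. The ratio of H2-Aa to H2-Ab1, the chains of one molecule, was 1.54 ± 0.070 in PMN-MDSCs, 1.43 ± 0.051 in WT Mo-MDSCs and 1.40 ± 0.069 in Mo-MDSCs labelled DKO (SD, n = 3), and Cd74 was 2.51 ± 0.095, 2.59 ± 0.14 and 2.53 ± 0.20 times H2-Aa. These ranges overlapped between the Mo-MDSC groups.

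H2-Ab1, in contrast, was 13.7, 14.3 and 13.4 times H2-Oa in PMN-MDSCs, 18.8, 18.8 and 16.9 times in WT Mo-MDSCs and 26.3, 28.6 and 25.0 times in Mo-MDSCs labelled DKO. The 3 groups did not overlap. The ratio of H2-DMa to H2-Oa, editor to inhibitor, was 2.51 ± 0.10 in PMN-MDSCs and 4.57 ± 0.052 in WT Mo-MDSCs, apart in all samples, and 4.95 ± 0.49 in those labelled DKO (SD, n = 3), which overlapped with WT. H2-Ab1 was 39.8 ± 3.3 times Ciita in PMN-MDSCs, 25.4 ± 0.96 times in WT Mo-MDSCs and 24.3 ± 2.9 times in those labelled DKO.

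**Figure D4:**
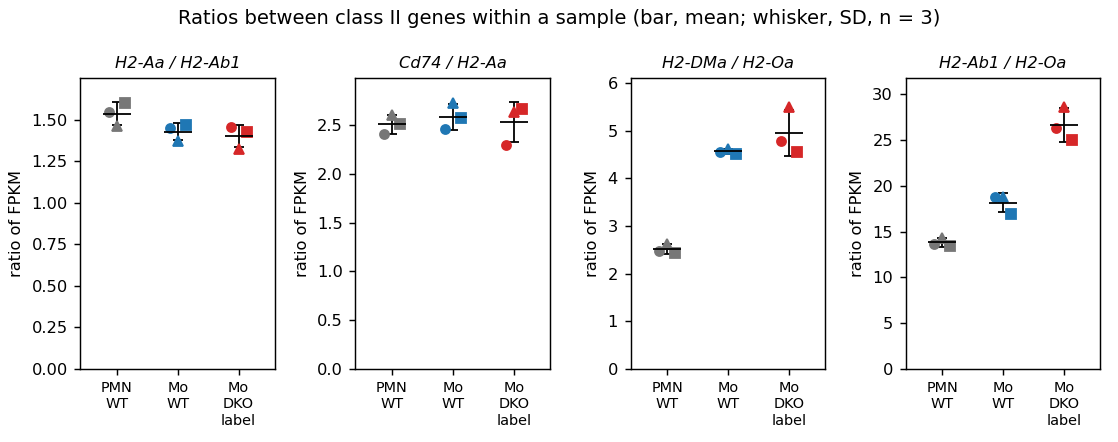
Ratios of FPKM within each sample (vertical axes, from 0) for 4 pairs of class II genes by group, with the mean as a bar, the SD as whiskers (n = 3) and replicates 1, 2 and 3 as circle, triangle and square. The ratio of Cd74 to H2-Aa overlaps in all groups, whereas that of H2-Ab1 to H2-Oa is separate in each.

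H2-DMb1 has a near-identical neighbour, H2-DMb2, so the division of reads between them by the authors' programs is uncertain. The call of H2-DMb1 between the subsets may depend on that division, and the sum of these genes was not tested. H2-DMb2 was at 166, 150 and 170 FPKM in PMN-MDSCs and at 117, 119 and 111 FPKM in WT Mo-MDSCs, and it fell by 0.48 ± 0.08 on the log2 scale (SE, adjusted p in limma 0.0031) where H2-DMb1 rose. In samples labelled DKO H2-DMb2 was at 124, 122 and 155 FPKM, just above all WT samples, with an adjusted p in limma of 0.43. The ratio of H2-DMb1 to H2-DMb2 was 0.51 ± 0.040, 1.01 ± 0.076 and 1.18 ± 0.20 in the 3 groups (SD, n = 3).

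Ciita's partners on the promoters were listed with interferon-γ receptor chains and factors of that pathway or of the myeloid and B-cell lineages. Of 12 tested, 3 rose and 3 fell in Mo-MDSCs against PMN-MDSCs in limma, where 18.5% of all genes tested were called higher and 20.6% lower. Ifngr1, a chain of the interferon-γ receptor, rose by 0.60 on the log2 scale (mean 288 against 189 FPKM, adjusted p 0.0022), and Irf8, a factor of the monocyte lineage, by 0.45 (138 against 101 FPKM, adjusted p 0.0064). Irf1, an interferon-induced factor that acts on a Ciita promoter, fell by 0.82 (91.3 against 161 FPKM, adjusted p 0.00042), and Nfyb, a subunit of the complex on the Y box, fell by 0.29 (11.6 against 14.2 FPKM, adjusted p 0.023).

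Between the genotype labels none of these 12 was called in limma, and 1, Ifngr2, had an unadjusted p below 0.05, with a log2 difference of -0.29. Of all genes tested, 5.27% were higher and 9.74% lower at that p. The median log2 difference of the 12 genes was 0.036 beside 0.52 for the class II genes. Rfx5, Rfxank and Rfxap, the subunits of the complex on the X box, had differences of 0.13, -0.069 and 0.032, and Irf1 of 0.071.

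Genes for antigen processing moved in both directions between the subsets. Of 9 tested, 2 rose and 3 fell in Mo-MDSCs in limma, where 18.5% of all genes tested were called higher and 20.6% lower. Ctss, the protease that trims the invariant chain in antigen-presenting cells, rose by 0.75 on the log2 scale (mean 1452 against 860 FPKM, adjusted p 0.0014) and Ifi30, a thiol reductase of the same compartment, also by 0.75 (689 against 412 FPKM, adjusted p 0.0031). Ctsd, a lysosomal aspartic protease, fell by 1.05 (770 against 1594 FPKM, adjusted p 0.00030).

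Between the genotype labels 0 of the 9 processing genes were called, and the median log2 difference was 0.13. Ctss and Ifi30 stood at -0.26 and -0.35, on the other side of 0 from the class II chains, with adjusted p of 0.39 and 0.29 in limma. March1 (a ubiquitin ligase that removes class II from the surface) and Cd83 (which opposes it) had differences of -0.079 and 0.13.

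Of 6 costimulation genes, 3 fell and 0 rose in Mo-MDSCs against PMN-MDSCs, where 20.6% of all genes tested were called lower and 18.5% higher. Cd80, a ligand of CD28, fell by 0.72 on the log2 scale (mean 7.56 against 12.5 FPKM, adjusted p in limma 0.0022), and Icosl and Cd274, the latter encoding PD-L1, by 0.28 and 0.27. Between the genotype labels 0 were called. Cd274 (24.7 against 28.9 FPKM) and Cd80 (7.56 against 9.85 FPKM) were higher without overlap in the samples labelled DKO, with adjusted p of 0.26 and 0.33 in limma. Of all genes tested, 7.96% were higher without overlap. Cd40 went the other way, with overlap, at a log2 difference of -0.30.

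Position was set beside these values, because Cdkn1a lies at chr17:29090976-29100727 (GRCm38), 4.99 to 5.21 Mb from the 7 class II genes on that chromosome. Of the 5 genes tested that lie among them and are no class II genes (Brd2, Psmb9, Tap1, Psmb8 and Tap2), 0 had an unadjusted p below 0.05 between the genotype labels, with log2 differences of -0.15 to 0.015 in limma. Of all genes tested, 5.27% were higher and 9.74% lower at that p. The 5 genes were chosen after their values were seen, so the count of 0 is a description and no test. Ciita and Cd74, on other chromosomes, had differences of 0.65 and 0.52. Any allele linked to the deleted gene cannot be told apart from the genotype itself.

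Over the 9 samples and 11726 genes, the levels most like the mean standardised profile of the 9 class II genes were those of Prkce (Pearson r = 0.97), Ikbkg (0.95) and 3110056K07Rik (0.95), followed by Epn2, Mtss1, Zfp238, Mapk12, Il5ra, Ttc3 and Lipa (0.92 in the last). These values are descriptive, since the 9 samples share 3 group means and the members themselves had r between 0.056 for H2-Oa and 0.97 for H2-Ab1. Ikbkg, a subunit of the NF-κB kinase complex, had means of 11.8, 10.1 and 14.4 FPKM in PMN-MDSCs, WT Mo-MDSCs and Mo-MDSCs labelled DKO. Prkce, a protein kinase C, had 4.42, 4.02 and 5.03 FPKM, with overlap between PMN-MDSCs and both other groups.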

How the data were processed

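RNA of 9 splenic MDSC samples, 3 per group, was sequenced from stranded mRNA libraries. The authors mapped the reads to mm10 and deposited FPKM values per gene symbol. The submitters' processing notes name TopHat2 2.0.13, Bowtie2 2.2.3, SAMtools 0.1.19 and Cuffnorm 2.2.1, and the annotation and Cuffnorm's scaling are not given in the sources used here. Genes that reached 1 FPKM in 3 or more of the 6 samples of a comparison were tested on log2(FPKM + 0.1) with limma 3.58.1 (R 4.3.3, empirical Bayes with trend), with Benjamini-Hochberg adjustment over all genes tested and calls at an adjusted p below 0.05. The scripts were tested on simulated data. The changes planted there for the limma fit were larger than the fold changes of the class II genes. How often changes of their size would be called is not known from that test. An FPKM value carries no depth in reads, so precision is given by the spread between replicates. The exact permutation test over 20 divisions was 2-sided.

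The text names the 9 members, the deleted genes, genes of lists of pathway and cell type markers, 5 neighbouring genes on chromosome 17 and the 10 genes most like the members. The members and lists were chosen with earlier results of these data known. The 5 neighbours and the promoter motifs were chosen after the values or sequences were seen, as were the sum of 4 B-cell genes and its alternative of Ms4a1 and Pax5 only. Some genes of the lists, and the results that need them, are not reported here.

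Pairing was checked by correlating each sample's deviations from its group mean. Between PMN-MDSCs and WT Mo-MDSCs same-numbered samples correlated at r = 0.294, 0.483 and 0.2, all above 0.1, so the replicate block is given beside those results. The pairing comes from this check of the data and not from the labels. Alternatives were pseudocounts of 1 and 0.01, filters, all 9 samples in 1 fit, quantile and median-of-ratios scaling, no trend, the block, other B-cell genes in the sum and leaving out samples.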

Additional observations from a re-analysis of the deposited data

How the results depend on the processing

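Direction was kept for each class II gene in both comparisons under the alternatives run, except that after quantile normalization H2-Ob stood at 0.091 between the subsets, that H2-Oa turned to -0.039 and -0.0097 between genotype labels without WT Mo-MDSC replicate 2 or without DKO replicate 1, and that, relative to B-cell genes, H2-DMa turned to 0.015 between genotype labels without DKO replicate 3 and H2-Ob to -0.013 without DKO replicate 1. Between the subsets 1 class II gene was called higher in the fit described, 2 with at least 1 FPKM in every sample, with all 9 samples in 1 fit or with replicates 2 and 3 only, and 3 with quantile normalization or the replicate block, with 1 to 2 when samples were left out singly. Called lower were 2, against 4 with all 9 samples, 3 with no intensity trend (Cd74 added, adjusted p 0.031 in limma), 1 with quantile normalization, 6 with the replicate block and 1 to 2 when samples were left out. Between genotype labels 0 were called, against 2 with quantile normalization, where 23 of all genes tested were higher and 13 lower. Quantile normalization also moved the split over all genes between the subsets from 2121 higher and 2371 lower to 2509 higher and 2064 lower. Over all genes 1279 were higher between the subsets with replicates 2 and 3 only, and 1378 to 1798 when samples were left out. Between genotype labels 19 genes were higher and 10 lower, against 9 and 4 with no filter, 8 and 4 with replicates 2 and 3 only, 27 lower with all 9 samples, and 6 to 16 higher and 1 to 9 lower when samples were left out. The cause of these shifts was not tested. Same-numbered Mo-MDSC samples of the genotype labels correlated at r = 0.348, 0.226 and -0.07, so they were taken to share only a number; the replicate block gave 14 genes higher and 6 lower, with 0 class II genes called and Ciita at an adjusted p of 0.11 in limma. Replicate 3 labelled DKO did not correlate best with its own number. Depth in reads is unknown, and 3 samples a group limit the precision.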
